A study of Homo sapiens with 2 samples.

Results

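The small RNAs examined here were the uridine-rich RNAs of the spliceosome (U1, U2, U4, U5, U6 and their minor-spliceosome counterparts), the histone-processing U7 RNA and the small RNAs made mostly by RNA polymerase III: 7SK, 7SL, Y RNAs, vault RNAs and the RNA subunits of RNase P and RNase MRP. Members were the table rows with a single symbol that began with RNU, RNVU, RN7S, RNY or VTRNA, that was a U followed by digits only, or that was 7SK, Y_RNA, RMRP or RPPH1. This rule took 316 of 49672 symbols and 3238 of 62271 rows, without using any measured value. The cells were C4-2B, an androgen-independent line that grows as a bone-metastatic castration-resistant prostate cancer and derives from LNCaP. One group received 2.5 µM MA4-022-1, a dual inhibitor of BET bromodomain proteins and kinases, and the other received the DMSO vehicle. Each group was 1 library, so no difference given here has a replicate check, and no test between conditions was possible. How long the cells were exposed is not stated in the labels.

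Spliceosomal RNAs pair with one another and with the splice sites of pre-mRNA: U1 and U2 recognise the 5′ splice site and the branch point, U4 holds U6 inactive until activation, and U5 aligns the exons. U11, U12, U4atac and U6atac do the same work on a rare class of introns. Most of these RNAs are transcribed by RNA polymerase II, carry a ring of Sm proteins and end through the Integrator complex, whereas U6, U6atac, 7SK, 7SL, the Y and vault RNAs and the RNase P and MRP RNAs are polymerase III products. 7SK RNA, with HEXIM and LARP7, holds the elongation kinase P-TEFb inactive, and BET proteins bring active P-TEFb to genes.

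Prostate luminal markers were present in both libraries. TMPRSS2 stood at 310 RPKM with MA4-022-1 and 251 RPKM with vehicle, and FOLH1 at 488 RPKM with MA4-022-1 and 615 RPKM with vehicle. The endothelial marker PECAM1 and the muscle marker DES were listed at 0 in both. The 2 fibroblast markers differed: COL1A1 stood at 5.03 RPKM with MA4-022-1 and 1.19 RPKM with vehicle, but COL1A2 at 0.018 and 0.0071 RPKM. The leukocyte marker PTPRC stood at 0.19 RPKM with MA4-022-1 and 0.021 RPKM with vehicle. The values were RPKM, reads per kilobase of RNA and per 1e6 reads, and their low steps gave normalising totals of about 19911400 reads with MA4-022-1 and 27141100 with vehicle. A ribosomal precursor row, RNA45S5, stood at 14398 RPKM with MA4-022-1 and 5352 RPKM with vehicle, 2.69-fold higher. Its part in the differences below was not tested.

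RPKM of very short RNAs rest on few reads. The deposited values fell on whole reads when each length was shortened to an effective length for fragments of 200 nt on average with an SD of 80 nt. Under that model 1 read on a U6 RNA of 107 nt was worth 13.9 RPKM with MA4-022-1 and 10.2 RPKM with vehicle. On RMRP, of 264 nt, 1 read was worth 0.697 RPKM with MA4-022-1 and 0.511 RPKM with vehicle. RPKM was thereby 29.6 times the value by full length at 107 nt and 3.66 times at 264 nt, so RPKM does not rank RNAs of different length, and sums of RPKM weight the shorter ones more. Sums of reads are therefore given beside them. Reads could be derived for 235 of the 588 rows with a value, 202 from a locus of their own and 33 from an annotated length. Ratios of reads were scaled by the normalising totals, and their 95% Clopper-Pearson intervals cover counting error only.

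**Figure D1:**
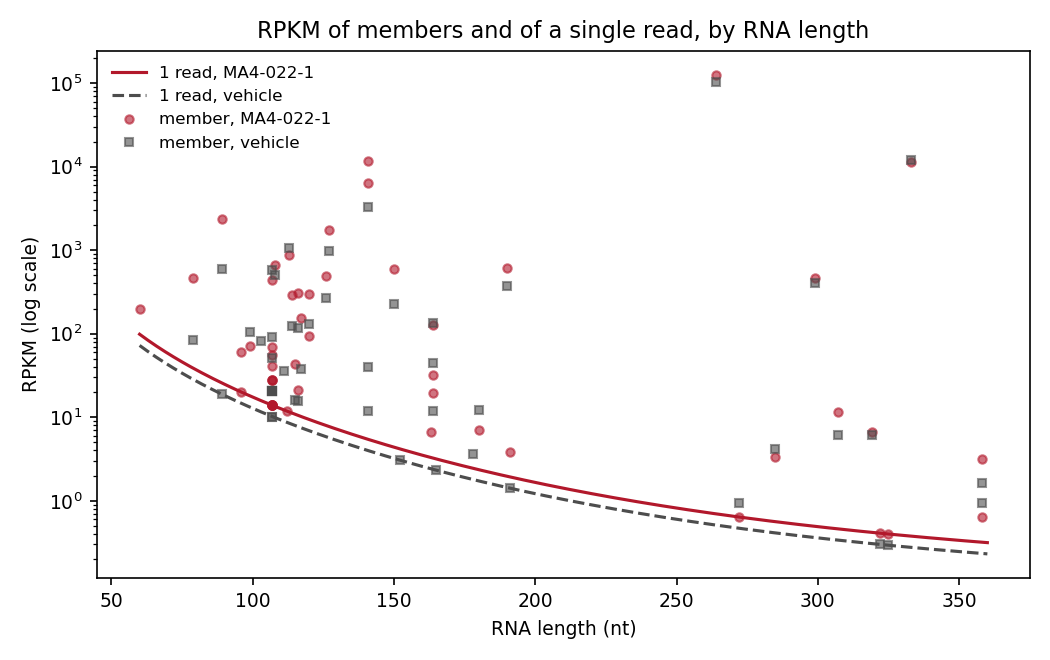
RPKM (log scale) of each member symbol of known length against its RNA length in nt, with red circles for the MA4-022-1 library and grey squares for the vehicle library, 1 library each; the lines give the RPKM that 1 read is worth at each length. The lines fall with length, and many members under 120 nt lie within a few reads of them.

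The sequences of the members with the clearest differences are shown first, as annotated transcripts of GENCODE release 29 (GRCh38), written as DNA letters. The U4 pair is shown because both were higher with MA4-022-1 by very different amounts, with capitals at the positions where they differ. The minor-spliceosome RNAs are shown because all with at least 10 reads were higher with MA4-022-1, with capitals on the letters AATTTTTGA or AATTTTTGG that include the Sm site. RNU6ATAC, which carries LSm proteins in place of Sm proteins, has no capitals. The vault pair is shown because nearly all reads fell on VTRNA1-3, with capitals where it differs from VTRNA1-2.
RNU4-2: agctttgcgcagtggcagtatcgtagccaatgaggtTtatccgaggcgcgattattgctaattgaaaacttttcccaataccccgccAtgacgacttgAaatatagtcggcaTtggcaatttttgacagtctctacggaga
RNU4-1: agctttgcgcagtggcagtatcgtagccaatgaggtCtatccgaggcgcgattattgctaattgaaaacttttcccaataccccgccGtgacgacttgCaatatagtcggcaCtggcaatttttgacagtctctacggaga
RNU12: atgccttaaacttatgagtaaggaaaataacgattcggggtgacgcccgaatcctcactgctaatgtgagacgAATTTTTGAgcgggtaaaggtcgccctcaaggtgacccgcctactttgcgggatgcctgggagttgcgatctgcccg
RNU4ATAC: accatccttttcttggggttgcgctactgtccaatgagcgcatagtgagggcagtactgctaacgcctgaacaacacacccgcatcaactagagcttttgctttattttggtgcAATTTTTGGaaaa
RNU6ATAC: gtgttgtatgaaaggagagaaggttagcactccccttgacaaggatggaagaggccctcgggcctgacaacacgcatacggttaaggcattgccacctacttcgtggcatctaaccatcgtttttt
VTRNA1-3: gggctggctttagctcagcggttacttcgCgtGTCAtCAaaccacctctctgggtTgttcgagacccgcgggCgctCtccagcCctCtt
VTRNA1-2: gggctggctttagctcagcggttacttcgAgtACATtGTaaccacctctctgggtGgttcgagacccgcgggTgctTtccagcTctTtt

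Of the 316 symbols, 239 were listed at 0 in both libraries and 77 had a value, of which 73 reached 1 RPKM in at least 1 library and are called expressed. On log2 of RPKM + 1, 24 of the 73 were at least 2-fold higher with MA4-022-1 (32.9%), against 8.36% of all 15786 expressed symbols, and 15 were at least 2-fold lower (20.5%), against 9.95%. The median was 0.43 for the 73 members and -0.02 for all expressed symbols. It was also 0.43 over the 51 members for which a ratio can be given, with those at 0 in 1 library set at the limit that 3 reads allow. Among 408 other short rows with a locus of their own, read with the same few-read steps, 25.7% were higher and 23.3% lower, with a median of 0.25. The members' shares of 32.9% and 20.5% were near those of such rows.

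Few of these differences rested on more than a handful of reads. Of the 39 members past 2-fold, 25 were listed at 0 in 1 library. Of 31 expressed symbols with fewer than 10 reads in both libraries together, 26 were past 2-fold, and the counting interval of 24 of those spanned no change. Of 29 symbols with at least 10 reads, 9 were at least 2-fold higher with MA4-022-1 and 0 were at least 2-fold lower. Their counting intervals lay above no change for 15, spanned it for 13 and lay below it for RPPH1. Other short rows were not counted at this minimum, so whether this split is particular to the members was not tested. Without the minimum, 25.7% of those rows were higher and 23.3% lower, with a median log2 ratio of 0.25. Reads could not be derived for the remaining 13 expressed symbols.

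**Figure D2:**
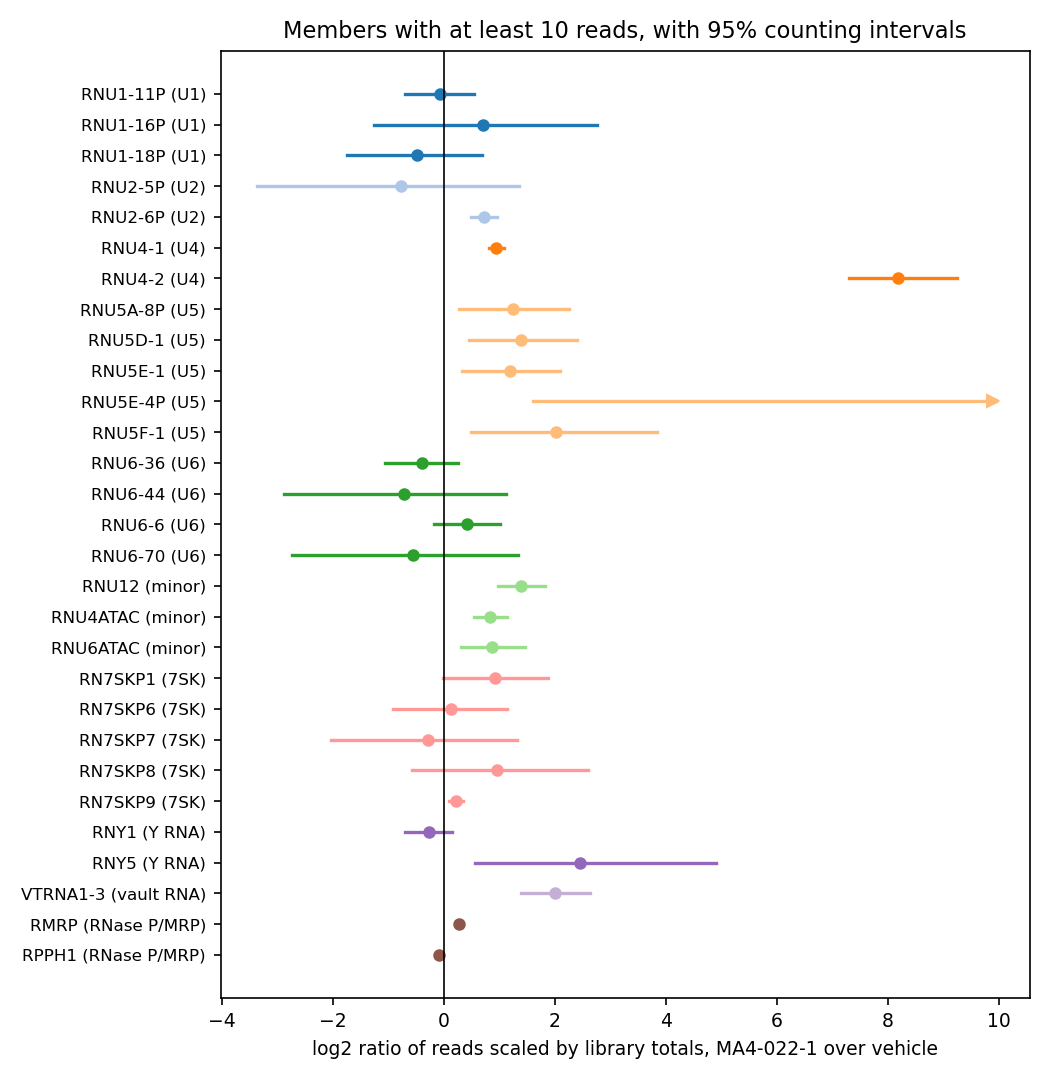
Log2 ratio of reads scaled by library totals, MA4-022-1 over vehicle, for the 29 member symbols with at least 10 reads in both libraries together, coloured by RNA class; dots are ratios, bars 95% counting intervals, and the arrow marks RNU5E-4P, at 0 reads in vehicle. All 5 U5 symbols, all 3 minor-spliceosome symbols, both U4 symbols and VTRNA1-3 lie above 0, and RNU4-2 stands farthest at 8.18.

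Among the classes with at least 10 derived reads, U4 RNA showed the widest difference. The class summed to 17982 RPKM with MA4-022-1 and 3440 RPKM with vehicle, and to 3314 reads with MA4-022-1 and 849 reads with vehicle, a scaled ratio of 5.32 (95% counting interval 4.93 to 5.74). RNU4-2 (hg19 chromosome 12, 120729566 to 120729706) had 11537 RPKM from 2130 reads with MA4-022-1 and 39.7 RPKM from 10 reads with vehicle. That is a 290-fold difference with a counting interval of 158 to 606. RNU4-1 (chromosome 12, 120730900 to 120731040), the neighbouring functional copy, had 6408 RPKM from 1183 reads with MA4-022-1 and 3318 RPKM from 835 reads with vehicle, 1.93-fold higher (1.77 to 2.11). RNU4-2 held 64.2% of U4 RPKM with MA4-022-1 and 1.16% with vehicle.

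The 2 U4 genes are 141 nt long and differ, from RNU4-1 to RNU4-2 and counted from the 5′ end, by C37T, G88A, C99A and C113T, an identity of 97.2%. Of the 92 windows of 50 nt, the length of a read, 1 was shared by both genes. The other U4 rows were low: the symbol U4, with 83 rows, summed to 37.7 RPKM with MA4-022-1 and 69.9 RPKM with vehicle, and RNU4-8P had 0 reads with MA4-022-1 and 3 with vehicle. In bulk libraries, a change in how many cells carry an RNA and a change in its amount per cell cannot be told apart.

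Most expressed U5 symbols were higher, at modest depth. The class summed to 1171 RPKM with MA4-022-1 and 461 RPKM with vehicle, and to 114 reads with MA4-022-1 and 60 with vehicle, a scaled ratio of 2.59 (1.88 to 3.60). Of 8 expressed U5 symbols, 5 were at least 2-fold higher and 1 lower, where other short rows had 25.7% higher and 23.3% lower, with a median log2 ratio of 1.21, or 1.23 over the 7 for which a ratio can be given. RNU5D-1, a variant U5 gene on chromosome 1, had 306 RPKM from 29 reads with MA4-022-1 and 116 RPKM from 15 reads with vehicle, 2.64-fold higher (1.37 to 5.29). RNU5E-1 had 301 RPKM from 32 reads with MA4-022-1 and 131 RPKM from 19 reads with vehicle, 2.30-fold higher (1.26 to 4.29). The annotated pseudogene RNU5A-8P had 26 reads with MA4-022-1 and 15 with vehicle, and RNU5F-1 had 15 with MA4-022-1 and 5 with vehicle. RNU5E-4P had 10 reads with MA4-022-1 and 0 with vehicle, with a counting interval of the ratio from 3.06 upward.

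The U5 genes usually counted as the main ones were barely covered. RNU5B-1 had 2 reads in each library. RNU5A-1 stood at 4.92 RPKM with MA4-022-1 and 1.97 RPKM with vehicle, values from which no whole reads could be derived. RNU5A-4P went the other way, with 0 reads with MA4-022-1 and 4 with vehicle, a count too low for a ratio. The letters AATTTTTG or AATTTTTTG, searched on the RNA strand, occurred in 16 of 29 U5 sequences matched, in 4 of 9 U4, in 3 of 10 minor-spliceosome, in 1 of 17 U1, in 0 of 4 U2, in 0 of 60 U7 and in 0 of 66 U6 sequences. Only these exact letters were searched, and many of the sequences are pseudogene copies. Their absence therefore does not show that an RNA class lacks an Sm site.

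The minor-spliceosome RNAs were also higher with MA4-022-1. They summed to 2852 RPKM with MA4-022-1 and 1480 RPKM with vehicle, and to 426 reads with MA4-022-1 and 290 with vehicle, a scaled ratio of 2.00 (1.72 to 2.33). RNU12, which recognises the branch point of minor introns, had 600 RPKM from 137 reads with MA4-022-1 and 228 RPKM from 71 reads with vehicle, 2.63-fold higher (1.96 to 3.55). RNU4ATAC had 1758 RPKM from 227 reads with MA4-022-1 and 983 RPKM from 173 reads with vehicle, 1.79-fold higher (1.46 to 2.19). RNU6ATAC, the polymerase III member of the group, had 493 RPKM from 62 reads with MA4-022-1 and 269 RPKM from 46 reads with vehicle, 1.84-fold higher (1.23 to 2.75). RNU11 appeared only in a row joined with RP11-442N24__B.1, outside the rule, at 396 RPKM with MA4-022-1 and 263 RPKM with vehicle.

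No U1 or U2 value given here came under the name of a canonical gene. The canonical U1 genes RNU1-1, RNU1-2, RNU1-3 and RNU1-4 were listed at 0 in both libraries. Every window of 50 nt of these genes also lies in another gene, and their 0 can be a failed estimate. RNU2-1 and RNU2-2P were not analysed as single symbols, so which copies carried U1 and U2 cannot be told. The class summed to 6389 RPKM with MA4-022-1 and 4458 RPKM with vehicle, and the copies of known length to 232 reads with MA4-022-1 and 202 with vehicle, a scaled ratio of 1.57 (1.29 to 1.90). The row with the most signal, a U1 copy in a shared locus on chromosome 6, had 3182 RPKM with MA4-022-1 and 2910 RPKM with vehicle. It held 49.8% of U1 RPKM with MA4-022-1 and 65.3% with vehicle. Without the rows named U1, the class sum turned to a log2 ratio of -0.081. A 164-nt copy alone in its locus on chromosome 1 (145382757 to 145382920) had 106 reads with MA4-022-1 and 74 with vehicle, 1.95-fold higher. The pseudogene RNU1-11P had 39 reads with MA4-022-1 and 56 with vehicle, 0.949-fold (0.614 to 1.45), so its interval spans no change.

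U2 gave different answers by RPKM and by reads. Its rows summed to 3833 RPKM with MA4-022-1 and 3606 RPKM with vehicle, 1.06-fold, a direction that turned to a log2 ratio of -0.10 with equal sums over other genes, while the copies with known length held 884 reads with MA4-022-1 and 796 with vehicle, a scaled ratio of 1.51 (1.37 to 1.67). One U2 row, in a locus shared with PDE4DIP on chromosome 1 and without derived reads, had 1196 RPKM with MA4-022-1 and 1557 RPKM with vehicle. RNU2-6P had 617 RPKM from 314 reads with MA4-022-1 and 373 RPKM from 259 reads with vehicle, 1.65-fold higher (1.40 to 1.96). All 4 U2 copies alone in their locus with at least 20 reads were higher with MA4-022-1, by log2 ratios of 0.27 to 2.05. The largest of these, chosen after its value was seen, lies on chromosome 2 (88315873 to 88316066) and had 109 reads with MA4-022-1 and 36 with vehicle.

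U6 RNA pairs with U2 in the active spliceosome, and its rows showed no common direction. Of 24 expressed U6 symbols, 7 were at least 2-fold higher and 7 lower, near the 25.7% higher and 23.3% lower of other short rows. Of the 24, 13 were listed at 0 in 1 library. The class summed to 5492 RPKM with MA4-022-1 and 3866 RPKM with vehicle, but the copies of known length held 166 reads with MA4-022-1 and 207 with vehicle, a scaled ratio of 1.09 (0.886 to 1.35). RNU6-6 had 50 reads with MA4-022-1 and 51 with vehicle, 1.34-fold (0.886 to 2.01). RNU6-36 had 32 reads with MA4-022-1 and 57 with vehicle, 0.765-fold (0.480 to 1.20). The intervals of both span no change.

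RNU6-1, a canonical U6 gene, was listed at 0 in both libraries. The symbol U6 covered 1292 rows, of which 153 had a value, and summed to 3931 RPKM with MA4-022-1 and 2270 RPKM with vehicle. Its top row, in a locus shared with SUPT3H on chromosome 6, had 950 RPKM with MA4-022-1 and 349 RPKM with vehicle. RNU6-60 had 0 reads with MA4-022-1 and 7 with vehicle, with a counting interval of the ratio up to 0.946. RNU6-20 had 5 reads with MA4-022-1 and 0 with vehicle, with a counting interval from 1.25 upward. The files place RNU6-2 on chromosome 10 and RNU6-7, RNU6-8 and RNU6-9 on chromosome 3, other chromosomes than the annotated genes of those names, so these symbols are not read as canonical U6 genes here.

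**Figure D3:**
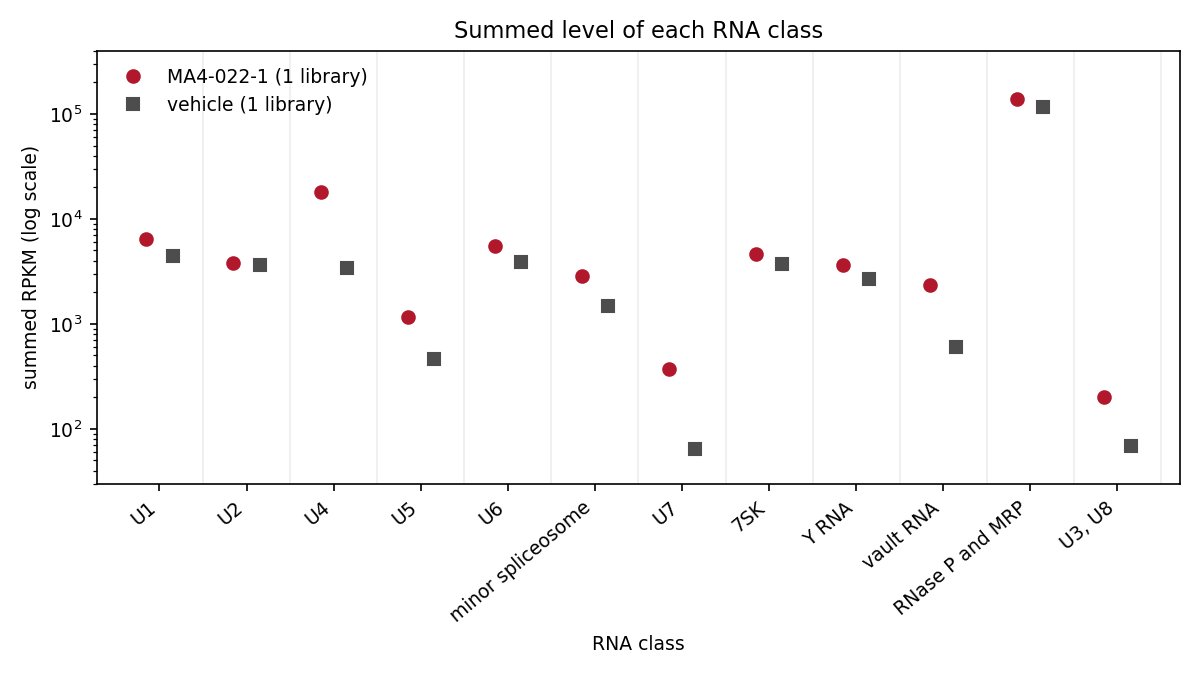
Summed RPKM (log scale) of each RNA class, with red circles for the MA4-022-1 library and grey squares for the vehicle library, 1 library each and no error bar. Every class drawn is higher with MA4-022-1, by 1.06-fold for U2, which turned lower when the libraries were scaled to equal sums over other genes, up to 5.78-fold for U7, which rests on very few reads; 7SL is not drawn because both of its symbols were listed at 0.

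U7, which guides the end processing of histone mRNA, summed to 373 RPKM with MA4-022-1 and 64.6 RPKM with vehicle. Only 2 reads could be derived, both on RNU7-71P with MA4-022-1, where they gave 197 RPKM. A U7 direction was therefore not readable at this depth. The nucleolar U3 and U8 symbols summed to 201 RPKM with MA4-022-1 and 68.7 RPKM with vehicle, with 7 derived reads with MA4-022-1 and 3 with vehicle.

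7SK RNA was modestly higher with MA4-022-1. The median log2 ratio of its 6 expressed symbols was 0.28, near the 0.25 of other short rows. The class summed to 4598 RPKM with MA4-022-1 and 3692 RPKM with vehicle, and to 5146 reads with MA4-022-1 and 5601 with vehicle, a scaled ratio of 1.25 (1.21 to 1.30). The canonical gene RN7SK was listed at 0 in both libraries, and the values came from 7SK-like copies elsewhere in the genome. The highest of those with a locus of its own, on chromosome 1 (55842199 to 55842525), had 588 RPKM from 1494 reads with MA4-022-1 and 476 RPKM from 1646 reads with vehicle, 1.24-fold higher. RN7SKP9 had 469 RPKM from 949 reads with MA4-022-1 and 401 RPKM from 1107 reads with vehicle, 1.17-fold higher (1.07 to 1.28). RN7SKP1 had 25 reads with MA4-022-1 and 18 with vehicle, and its interval just spans no change.

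7SK copies give the best view of how far copies of one class differ. Of 23 copies alone in their locus with at least 20 reads, 17 were higher and 6 lower with MA4-022-1, with log2 ratios of -0.67 to 2.29 and a median of 0.26, or 13 higher and 10 lower when scaled to equal sums over other genes. The copy at 2.29, chosen after its value was seen, lies on chromosome 20 (36603558 to 36603883) and had 180 reads with MA4-022-1 and 50 with vehicle. A copy on chromosome 5 (6848240 to 6848575) had 182 reads with MA4-022-1 and 301 with vehicle.

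**Figure D4:**
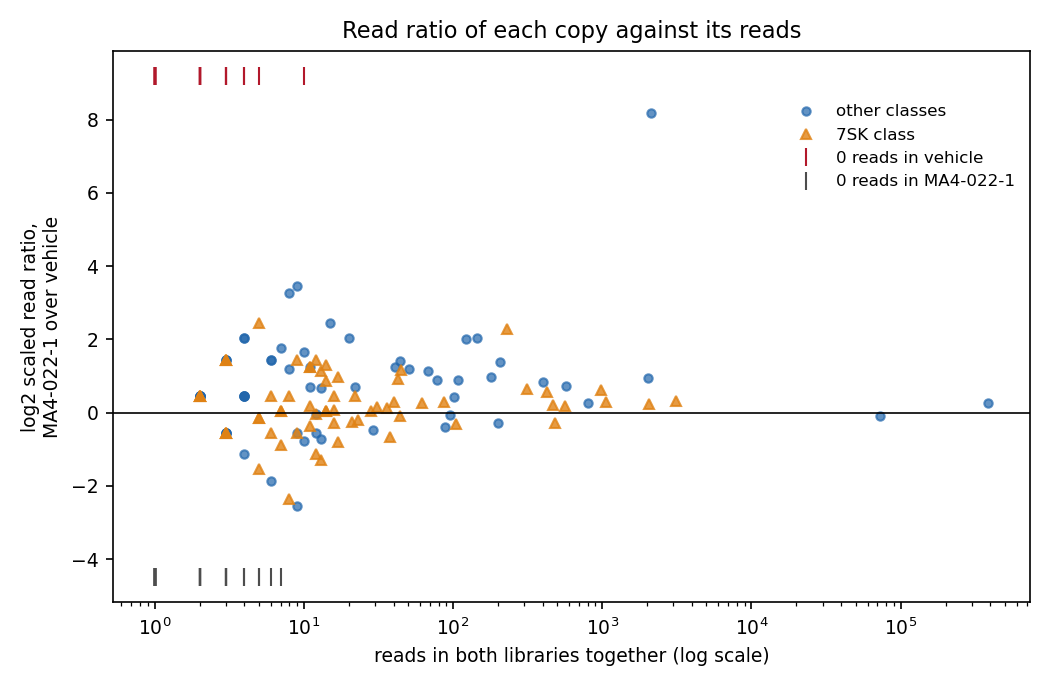
Log2 ratio of reads scaled by library totals, MA4-022-1 over vehicle, against the reads in both libraries together (log scale) for the 235 member rows with derived reads; orange triangles are 7SK-class rows, blue circles other classes, and ticks at the upper and lower edge, whose height has no meaning, mark rows with 0 reads in 1 library. Ratios spread widely under 10 reads, the 49 rows at 0 in vehicle hold up to 10 reads and the 59 at 0 with MA4-022-1 up to 7, and RNU4-2 stands alone at the upper right.

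The RNA of the signal recognition particle gave no value under its gene names, since RN7SL1 and RN7SL2 were listed at 0 in both libraries. Y RNAs, bound by the Ro60 and La proteins, moved unevenly. The class summed to 3599 RPKM with MA4-022-1 and 2697 RPKM with vehicle, but to 110 reads with MA4-022-1 and 147 with vehicle, a scaled ratio of 1.02 (0.789 to 1.31). RNY1, the best-covered Y RNA, had 876 RPKM from 76 reads with MA4-022-1 and 1057 RPKM from 125 reads with vehicle, 0.829-fold (0.615 to 1.11). RNY5 had 463 RPKM from 12 reads with MA4-022-1 and 84.9 RPKM from 3 reads with vehicle, a ratio of 5.45 (1.47 to 30.1). RNY4 had 3 reads with MA4-022-1 and 0 with vehicle, and RNY3 was listed at 0 in both.

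Vault RNAs, components of large cytoplasmic particles, showed one clear copy. VTRNA1-3 on chromosome 5 had 2351 RPKM from 91 reads with MA4-022-1 and 588 RPKM from 31 reads with vehicle, 4.0-fold higher (2.64 to 6.23). VTRNA1-2 had 0 reads with MA4-022-1 and 1 with vehicle, and VTRNA1-1 and VTRNA2-1 were listed at 0. VTRNA1-3 and VTRNA1-2, both 89 nt, differ at 12 positions, an identity of 86.5%.

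RMRP, the RNA of RNase MRP, which processes ribosomal RNA, had the highest RPKM and the most derived reads of the members. It had 126182 RPKM from 181116 reads with MA4-022-1 and 104571 RPKM from 204596 reads with vehicle, 1.21-fold higher (1.20 to 1.21). It held 67.7% of the members' RPKM with MA4-022-1 and 74.2% with vehicle, but 81.8% of their derived reads with MA4-022-1 and 79.9% with vehicle. RPPH1, the RNA of RNase P, which trims tRNA precursors, had 11244 RPKM with MA4-022-1 and 11944 RPKM with vehicle. With its annotated 333 nt these are 29826 reads with MA4-022-1 and 43188 with vehicle, a ratio of 0.941 (0.928 to 0.955), and with the protein-coding median set to 0 its log2 ratio turned to 0.0053.

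By polymerase, the 28 expressed symbols of polymerase II classes had a median log2 ratio of 0.78, or 0.95 over the 21 with a ratio. They summed to 32107 RPKM with MA4-022-1 and 13241 RPKM with vehicle, 2.42-fold, and to 4910 reads with MA4-022-1 and 2151 with vehicle, a scaled ratio of 3.11. The 43 of polymerase III classes had a median of 0.41, or 0.37 over the 28 with a ratio. Without RMRP these summed to 27777 RPKM with MA4-022-1 and 23074 RPKM with vehicle, 1.20-fold, and to 35401 reads with MA4-022-1 and 49221 with vehicle, a scaled ratio of 0.980. Most of those reads were on RPPH1, with 29826 with MA4-022-1 and 43188 with vehicle. With RMRP included, the scaled ratio of polymerase III reads was 1.16. RNU4-2 and RNU4-1 supply much of the polymerase II sum with MA4-022-1. Of the polymerase II reads, RNU4-2 had 2130 with MA4-022-1 and 10 with vehicle, and RNU4-1 had 1183 with MA4-022-1 and 835 with vehicle. A polymerase II ratio without this pair, and a polymerase III ratio without both RMRP and RPPH1, were not computed. The summed ratios are therefore not read as a difference between the polymerases as whole classes. All members together summed to 186267 RPKM with MA4-022-1 and 140955 RPKM with vehicle, 1.32-fold, or 1.65-fold without RMRP.

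Many canonical copies had no value in the tables. Of 39 canonical genes listed, 32 were present as a single symbol. Of these, 14 were listed at 0 in both libraries and 18 had a value, counting the U6 symbols that the files place on other chromosomes. An exact 0 in such tables can be a failed estimate. The sequence of 250 member symbols was compared, in windows of 50 nt on both strands, with all annotated genes having a transcript of at most 400 nt. Of 15 symbols whose every window also lay in another gene, 15 were listed at 0, among them 7 canonical genes. Of 47 with some unique windows, 20 were listed at 0 and 27 had a value, and of 188 with only unique windows, 154 were listed at 0 and 34 had a value. RN7SK was not in this comparison because its annotated length differed from that in the files.

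**Figure D5:**
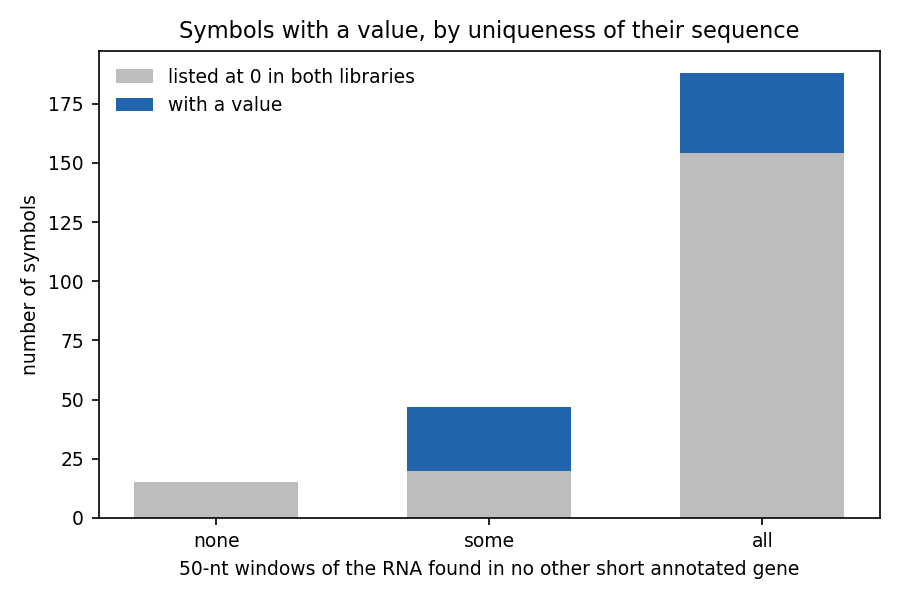
Number of member symbols listed at 0 in both libraries (grey) or with a value in at least 1 (blue), by whether none, some or all of the RNA's 50-nt windows are absent from every other short annotated gene. The 15 symbols with no unique window are all grey, and both other bars hold grey and blue parts.

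Many members lie within loci of larger genes, and reads of the host RNA and of the small RNA cannot be separated in these tables. Of the expressed rows, 176 had a locus of their own, with 57 higher (32.4%), 45 lower (25.6%) and a median log2 ratio of 0.27, near the 25.7% and 23.3% of other short rows. Another 312 shared a locus with an expressed named row, with 122 higher (39.1%), 104 lower (33.3%) and a median of 0.39, while the rows they share with had a median of -0.00. Of these 312, 193 were listed at 0 in 1 library. The remaining 46 lay in other shared or longer loci, with 17 higher (37.0%), 5 lower (10.9%) and a median of 0.46. Of these 46, 14 were listed at 0 in 1 library.

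The proteins that make and bind these RNAs were mostly within 2-fold. Of 144 expressed genes in 15 lists of partners, 4 were at least 2-fold higher (2.78%) and 9 lower (6.25%), with a median log2 ratio of -0.20. Among all expressed symbols the shares were 8.36% and 9.95%, but these include short RNAs with few reads and are not a like background. Protein-coding symbols with a mean of 1 RPKM or more had a median of -0.09. All 6 expressed LSm proteins of U6 were lower, by under 2-fold, with a median of -0.47, such as LSM4 at 115 RPKM with MA4-022-1 and 223 RPKM with vehicle. Of 5 expressed Sm proteins, 4 were lower, and SNRPD1 stood at 100 RPKM with MA4-022-1 and 253 RPKM with vehicle. Of 16 expressed U1 and U2 particle proteins, 9 were above 0 and 7 below, with a median of 0.13. With equal sums over other genes, 7 were above 0 and 9 below, with a median of -0.053, the opposite direction. The SF3 subunits were split: SF3A3 and SF3B3 were past 2-fold lower, while SF3A1, at 26.9 RPKM with MA4-022-1 and 13.8 RPKM with vehicle, and the other 5 expressed were above 0. Among those 5, SF3B4 and SF3B14 had log2 ratios of only 0.13, smaller than the shift of -0.19 that equal sums make. SF3A3 stood at 54.9 RPKM with MA4-022-1 and 123 RPKM with vehicle. PRPF31, which holds U4 to the U5 and U6 particle, was higher, at 64.7 RPKM with MA4-022-1 and 29 RPKM with vehicle.

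None of the 13 expressed Integrator subunits, the 7 expressed snRNA promoter factors, the 8 minor-spliceosome proteins, the 7 U7 and histone-end factors or the 5 signal recognition particle proteins passed 2-fold. Their median log2 ratios were -0.08, 0.08, -0.17, -0.52 and -0.24 in that order, of which the first turned to 0.0058 with the protein-coding median set to 0 and the second to -0.10 with equal sums over other genes. Of 19 expressed factors of snRNA export, capping, trimming and assembly, 16 were below 0, or 14 with the protein-coding median set to 0, and TOE1, an exonuclease that trims snRNA ends, stood at 2.34 RPKM with MA4-022-1 and 12.1 RPKM with vehicle. Among 12 polymerase III subunits the alternative subunits went opposite ways. POLR3G stood at 4.2 RPKM with MA4-022-1 and 10.4 RPKM with vehicle, and POLR3GL at 6.86 RPKM with MA4-022-1 and 2.85 RPKM with vehicle. Of 12 polymerase III factors, 3 were lower: GTF3A, which is needed for 5S rRNA genes, at 146 RPKM with MA4-022-1 and 382 RPKM with vehicle, GTF3C6 at 22.9 RPKM with MA4-022-1 and 90.9 RPKM with vehicle, and BRF2, which serves U6-type promoters, at 2.96 RPKM with MA4-022-1 and 8.48 RPKM with vehicle.

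Of the 7 expressed proteins of the 7SK particle, HEXIM1 alone passed 2-fold, at 26.3 RPKM with MA4-022-1 and 9.49 RPKM with vehicle. LARP7, which binds the 7SK end, stood at 48.8 RPKM with MA4-022-1 and 63.9 RPKM with vehicle. TEP1, a vault protein, stood at 5.51 RPKM with MA4-022-1 and 2.17 RPKM with vehicle. POP7, a shared subunit of RNase P and RNase MRP, stood at 19.8 RPKM with MA4-022-1 and 46.0 RPKM with vehicle.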

How the data were processed

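Total RNA, purified on RNeasy columns, with ribosomal RNA removed and ScriptSeq v2 libraries prepared, was sequenced as single 50 bp reads, per the labels' protocols. TopHat2 2.0.13, Cufflinks 2.2.1 and hg19 are named in the submitters' processing notes. The authors deposited RPKM per row for each library, and no label or header says how strand and multiply mapped reads were handled.

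From these values, rows of 1 symbol were summed, and ratios are MA4-022-1 over vehicle on log2 (RPKM + 1), with 1 RPKM in a library as the minimum and 2-fold as the threshold. Whole reads were derived from the steps of the RPKM: of low values up to 5 reads, 98.0% with MA4-022-1 and 98.7% with vehicle were within 0.02 of a whole read. The fragment settings are not the authors' stated ones: the shortest fragment, 20 nt, was chosen because it made the values whole (62.5% in vehicle at 10 nt and 58.1% at 30 nt), and the totals come from the same steps, so this share is no independent check. At high counts this check has no power, which concerns RPPH1 and RMRP. PCR duplicates are not in the counting intervals. RNU2-1, RNU2-2P, RNU7-1, RN7SL3, RNVU1-7 and RNVU1-18 were not analysed here as single symbols. Members and lists were chosen with earlier results of these data known. Named were the canonical genes, per class up to 3 highest and 3 lowest ratios at 5 RPKM or more and the most abundant member, and per partner list up to 4 of the largest ratios, with the few-read ones among them given as counts. Python 3.11.15, numpy 2.4.6, pandas 2.3.3, scipy 1.17.1 and matplotlib 3.10.9 were used, and the steps were tested on simulated data.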

Additional observations from a re-analysis of the deposited data

How the results depend on the processing

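No paired analysis was possible because each group was 1 library. The 16 alternative settings gave 231 further values of the counts, class sums and class medians, of which 196 moved by no more than one arm of their counting interval (counts by no more than 1.5 times), which is wide for low-read classes. The cause of the other 35 was not tested. Of the sums and medians, 17 took the opposite sign, 11 of them within that arm: medians of U1 and U2 in 9 cases, the median of U6 at -0.39 without members beside another expressed row, and the sum of U3 and U8 at -0.74 without its most abundant member. Of member counts, 196 were higher and 154 lower with each row on its own, 7 lower without members beside another expressed row, 12 higher and 2 lower without members at 0 in a library, and 9 higher and 0 lower at 10 reads or more. On the log2 ratio of class sums, setting the protein-coding median to 0 (a shift of 0.09) gave 2.61 for U7, 0.41 for 7SK and 0.33 for RNase P and MRP, and turned RPPH1 to 0.0053. Equal sums over other genes (a shift of -0.19, also moving the median of all genes) gave -0.10 for U2, the opposite direction, 2.2 for U4, 2.32 for U7, 0.13 for 7SK and 0.048 for RNase P and MRP. Without members beside another expressed row, U1 gave 1.18, U2 0.64, U7 0 and RNase P and MRP 0.27. Without the most abundant member of a class, U1 gave -0.081, U6 -0.032, vault RNA -4.32 on 1 read and RNase P and MRP -0.087, opposite in direction like that of U3 and U8, and U2 gave 0.68, U4 0.92, U7 7.63 and 7SK 0.23. Whole reads gave 0.60 for U2, 0.13 for U6, 0.029 for Y RNA and 0.21 for RNase P and MRP. U7 gave 2.44 with a pseudocount of 5 RPKM and 1.43 without members at 0 in a library. The median of U5 was 0 with no filter on low values. Without RNU4-1 and RNU4-2 the U4 sum turned to -1.10, on rows of few reads. The last setting, the reads, the minimum of 10 reads and the addition of joined rows were chosen after seeing the data. No joined row held member symbols alone. Adding the joined rows that held a member beside other symbols gave a median of 0.32 for U2, opposite in direction.

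With 1 library per group, spread between cultures is not in any interval, and depth limits most members: an RNA near 107 nt needs several reads, each worth over 10 RPKM, before a ratio can be read.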

Other observations

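Rows related to these RNAs lay outside the rule on symbols. Metazoa_SRP, the name for copies of the signal recognition particle RNA, covered 882 rows, 499 with a value, and summed to 8881 RPKM with MA4-022-1 and 8848 RPKM with vehicle. Its copies alone in their locus held 11739 reads with MA4-022-1 and 16392 with vehicle. The symbols 5S_rRNA and Vault were listed at 0 in both libraries. The symbol snoU13 stood at 1193 RPKM with MA4-022-1 and 776 RPKM with vehicle, U4atac at 43.4 RPKM with MA4-022-1 and 35.0 RPKM with vehicle, U6atac at 31.7 RPKM with MA4-022-1 and 45.8 RPKM with vehicle, and BCYRN1, a primate polymerase III RNA of neurons, at 25.2 RPKM with MA4-022-1 and 19.2 RPKM with vehicle.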
